A study of Rattus norvegicus with 6 samples.

Results

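The Gimap genes encode GTPases of immunity-associated proteins, a family that sits as 1 cluster on rat chromosome 4 and includes Gimap5, the gene hit by the lyp frameshift of the BB rat. All probe sets of the Affymetrix rat genome array whose single gene symbol begins with Gimap were taken. These were 6 of the 31042 probe sets tested, and they covered 5 genes, with 2 probe sets for Gimap1 and 1 each for Gimap4, Gimap5, Gimap6 and Gimap7. The RefSeq table of the rat lists 7 Gimap genes, and no probe set of the array was named for Gimap8 or Gimap9, so those 2 were not analysed here. Liver RNA from 3 groups of congenic rats was measured on 6 arrays, 2 a group. Post-hyperglycemia BBDR.lyp/lyp rats were aged 55 days, within 5 days, and were sampled shortly after the onset of hyperglycemia. Pre-hyperglycemia BBDR.lyp/lyp rats were aged 50 days, within 5 days, and BBDR.+/+ rats were aged 55 days, within 5 days. All 6 arrays thus share the BBDR background, and the lyp/lyp rats are homozygous at the lyp locus for the diabetes-prone form. In a congenic rat the chromosome around the selected gene comes with it, and which of the flanking genes named here lie on that segment was not settled. Age and hyperglycemia changed together between the lyp/lyp groups, and their parts cannot be told apart. The labels number the arrays of a group without saying that they came from separate animals, so the p-values measure only the spread between these samples, which may be technical.

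Gimap proteins bind GTP and are best known from lymphocytes. Gimap5 is needed for the survival of resting T cells in rats and mice, and rats homozygous for lyp are short of peripheral T cells. Gimap4 has been linked to the execution of T cell death in mice, Gimap1 to the development of mature lymphocytes in mice, and Gimap6 to autophagy. Liver holds resident T cells, NK cells, macrophages and endothelium beside its hepatocytes, and all of these contribute to the RNA of a whole tissue sample. The labelled tissue was checked with hepatocyte markers, and all 6 that were measured had a mean log2 signal of at least 13.5.

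The start regions of the Gimap genes are shown first because the members share a cluster but, as described below, did not share a direction. RefSeq promoters of the GRCr8 assembly, from 250 bases before to 50 after the start of each gene, were found for all 7 Gimap genes. They come from the reference rat and not from the BB rats measured here. The promoters of Gimap4 at chr4:78967047-78967346 (plus strand) and Gimap5 at chr4:79024975-79025274 (plus strand), the 2 members with lower signals in lyp/lyp liver, are printed beside that of Gimap6 at chr4:78989957-78990256 (minus strand), a member that passed no test. Capitals mark AGGAAG, a 6-base form of the site of ETS family factors, or its reverse complement CTTCCT. ETS factors are transcription factors common in lymphocytes, and other forms of their site were not searched. Each sequence is written 5′ to 3′ along its gene.
Gimap5: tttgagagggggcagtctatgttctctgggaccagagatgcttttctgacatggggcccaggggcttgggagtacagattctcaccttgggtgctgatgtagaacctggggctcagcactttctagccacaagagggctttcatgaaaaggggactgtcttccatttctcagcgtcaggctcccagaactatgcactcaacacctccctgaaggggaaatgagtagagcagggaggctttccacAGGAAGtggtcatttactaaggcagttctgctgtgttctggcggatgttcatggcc
Gimap4: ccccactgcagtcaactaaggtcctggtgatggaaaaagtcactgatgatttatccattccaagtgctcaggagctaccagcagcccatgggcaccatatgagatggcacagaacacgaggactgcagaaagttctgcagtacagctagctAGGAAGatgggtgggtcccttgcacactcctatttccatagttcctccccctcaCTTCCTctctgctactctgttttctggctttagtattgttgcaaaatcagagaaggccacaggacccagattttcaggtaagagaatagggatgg
Gimap6: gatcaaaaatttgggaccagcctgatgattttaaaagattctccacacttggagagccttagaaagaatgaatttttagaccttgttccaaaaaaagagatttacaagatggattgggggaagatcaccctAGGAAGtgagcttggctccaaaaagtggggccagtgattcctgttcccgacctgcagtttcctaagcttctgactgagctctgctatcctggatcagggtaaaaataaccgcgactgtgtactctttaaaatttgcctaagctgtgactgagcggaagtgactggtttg

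AGGAAG, searched on both strands, began at position -6 of Gimap5, at -99 and -45 of Gimap4 and at -119 of Gimap6, counted in bases from the start of the gene. It was present in 5 of the 7 Gimap promoters, against 34.5% of the 33469 rat promoters of the same length. A RUNX site (TGNGGT, both strands) was found in 3 of 7, those of Gimap8, Gimap7 and Gimap1, against 47.1% of all promoters. The CCAAT box (CCAAT, both strands) was found in 2 of 7, those of Gimap9 and Gimap6, against 37.5%. TATAAA, searched on both strands, was found in 0 of 7, against 14.2%. The spelling of no motif contains another, and a match is a description of letters only. Among the members measured, AGGAAG was found in Gimap4 and Gimap5 and also in Gimap1 and Gimap6, and it was absent from Gimap7. Whether ETS sites bear on the signals was not tested.

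Gimap5, the gene of the lyp frameshift, had a lower signal in lyp/lyp liver both after and before the onset of hyperglycemia. Its log2 signals were 5.71 and 5.91 in post-hyperglycemia lyp/lyp, 5.52 and 5.85 in pre-hyperglycemia lyp/lyp, and 6.43 and 6.45 in BBDR.+/+ livers. All 4 lyp/lyp arrays lay below both BBDR.+/+ arrays, with a gap of 0.52 between the nearest arrays, whereas the lyp/lyp groups overlapped each other. The mean was 5.81 ± 0.14 post-hyperglycemia, 5.68 ± 0.23 pre-hyperglycemia and 6.44 ± 0.02 in BBDR.+/+ (SD, n = 2 each). Against BBDR.+/+, the log2 difference was -0.63 post-hyperglycemia (SE 0.13, limma adjusted p = 0.0191). It was -0.76 pre-hyperglycemia (SE 0.13, limma adjusted p = 0.0284). With both lyp/lyp groups weighted equally the difference was -0.69 (95% interval -0.94 to -0.45, limma adjusted p = 0.0103), which is 0.619 times the BBDR.+/+ signal. Where the frameshift lies relative to the probes was not known here, so this signal is no check of the genotype. Whether the probes bind the lyp form equally well, and whether the frameshift changes the level of the RNA, was not tested.

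Gimap4, linked to T cell death in mice, was lower in both lyp/lyp groups too, and was the only member whose signal differed between them in the test. Its log2 signals were 5.93 and 6.09 post-hyperglycemia, 5.39 and 5.58 pre-hyperglycemia, and 6.58 and 6.54 in BBDR.+/+ livers. No group overlapped another, and the order was BBDR.+/+ highest, post-hyperglycemia lyp/lyp next and pre-hyperglycemia lyp/lyp lowest. The post-hyperglycemia mean was 6.01 ± 0.12, the pre-hyperglycemia mean 5.48 ± 0.14 and the BBDR.+/+ mean 6.56 ± 0.03 (SD, n = 2 each). The pre-hyperglycemia signal was 0.474 times that of BBDR.+/+, a log2 difference of -1.08 (SE 0.11, limma adjusted p = 0.00269). Post-hyperglycemia it was 0.681 times, a difference of -0.55 (SE 0.11, limma adjusted p = 0.0192). Over both lyp/lyp groups the difference was -0.82 (95% interval -1.03 to -0.60, limma adjusted p = 0.00303).

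Post-hyperglycemia Gimap4 exceeded its pre-hyperglycemia level by 0.52 on the log2 scale (95% interval 0.28 to 0.77, limma adjusted p = 0.0413), a ratio of 1.44. For Gimap5 the same comparison gave 0.13 (95% interval -0.16 to 0.41, limma adjusted p = 0.723), an interval that holds 0 but not the value of Gimap4. Whether the genes differed from each other in this comparison was not tested. Set against the BBDR.+/+ mean array by array, Gimap4 stood at -0.64 and -0.47 post-hyperglycemia and at -1.17 and -0.98 pre-hyperglycemia. The Gimap5 values on those arrays were -0.73 and -0.53 post-hyperglycemia and -0.92 and -0.59 pre-hyperglycemia. Within each lyp/lyp group, replicate 1 was the lower array for both genes. Over the 6 arrays the Pearson correlation of the pair was 0.929, a description in which the group difference carries most of the range.

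**Figure D1:**
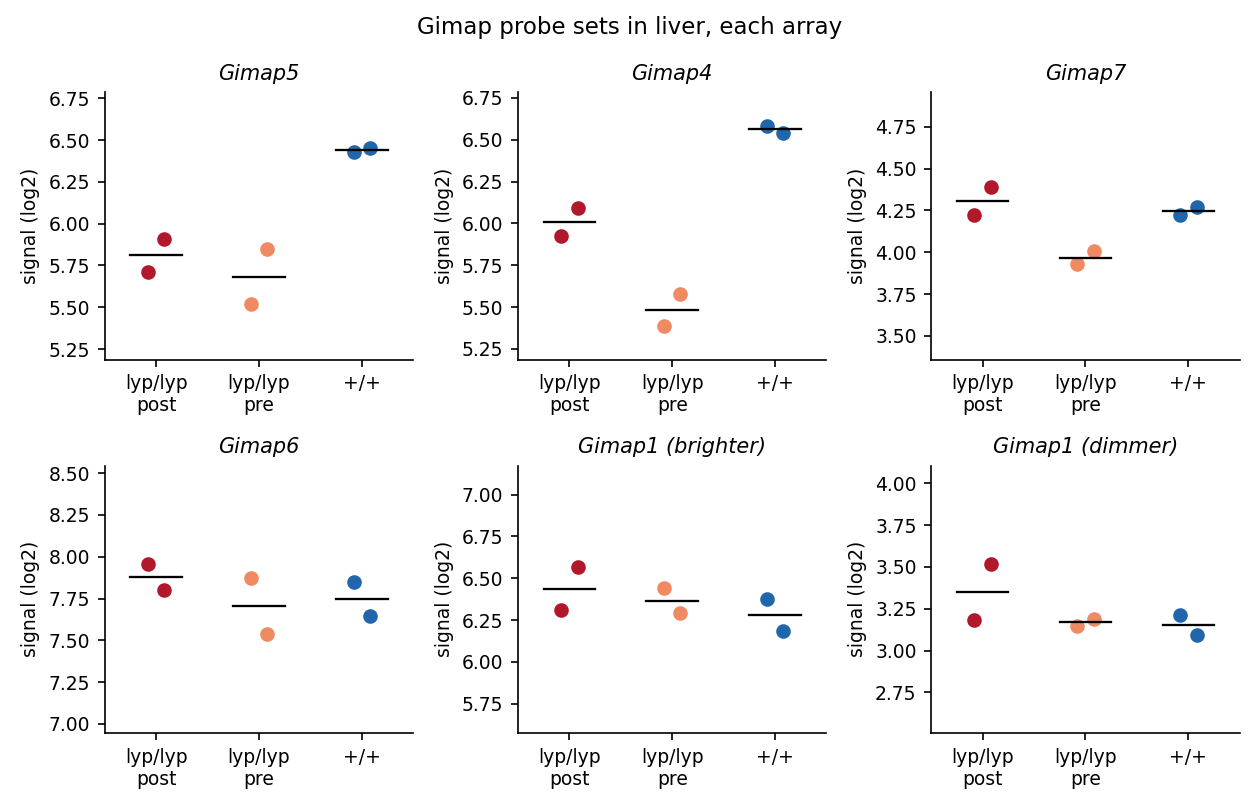
Log2 signal of each Gimap probe set (vertical axes, all spanning the same range of log2 units) in livers of lyp/lyp rats post-hyperglycemia, lyp/lyp rats pre-hyperglycemia and BBDR.+/+ rats, with 1 point per array and a line at the mean of the 2 arrays. The Gimap5 and Gimap4 points of the 4 lyp/lyp arrays all lie below both BBDR.+/+ arrays, whereas those of Gimap6 and of both Gimap1 probe sets overlap.

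Gimap7, a GTPase of the same family, had log2 signals of 4.22 and 4.39 post-hyperglycemia, 3.93 and 4.01 pre-hyperglycemia, and 4.22 and 4.27 in BBDR.+/+ livers. The pre-hyperglycemia arrays lay below all others, and the post-hyperglycemia arrays overlapped those of BBDR.+/+. The pre-hyperglycemia difference from BBDR.+/+ was -0.28 (SE 0.11), with an unadjusted p of 0.0247 that did not pass after adjustment (limma adjusted p = 0.335). The post- versus pre-hyperglycemia difference of 0.34 had an unadjusted p of 0.0091 and did not pass either (limma adjusted p = 0.149).

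Gimap6, which lies between Gimap4 and Gimap7 in the cluster, had log2 signals of 7.95 and 7.80 post-hyperglycemia, 7.87 and 7.54 pre-hyperglycemia, and 7.85 and 7.65 in BBDR.+/+ livers. The 3 groups overlapped. Over both lyp/lyp groups its difference from BBDR.+/+ was 0.04 (95% interval -0.21 to 0.30, limma adjusted p = 0.907), an interval that holds 0 but not the differences measured for Gimap4 and Gimap5.

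Gimap1, the nearest family member to Gimap5 on the chromosome, was measured by 2 probe sets, and neither was called in any comparison. The brighter one read 6.31 and 6.57 post-hyperglycemia, 6.44 and 6.29 pre-hyperglycemia, and 6.37 and 6.18 in BBDR.+/+ livers. The dimmer one read 3.18 and 3.52 post-hyperglycemia, 3.14 and 3.19 pre-hyperglycemia, and 3.21 and 3.09 in BBDR.+/+ livers. Arrays of the groups overlapped for both. Over both lyp/lyp groups the brighter probe set differed from BBDR.+/+ by 0.12 (95% interval -0.11 to 0.36, limma adjusted p = 0.636) and the dimmer one by 0.11 (95% interval -0.13 to 0.35, limma adjusted p = 0.694). No detection call came with the values, and only 5.5% of probe sets had a mean at or below that of the dimmer one, so whether it exceeded background is not known.

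Read as a family, 2 of the 6 probe sets were called lower and 0 higher in each comparison with BBDR.+/+, the 2 being Gimap4 and Gimap5 each time. Across all probe sets, 5.15% were called post-hyperglycemia versus BBDR.+/+ (3.26% lower), 0.718% pre-hyperglycemia versus BBDR.+/+ (0.254% lower) and 3.06% with both lyp/lyp groups together (1.88% lower). The comparisons share the BBDR.+/+ arrays, so they are not separate evidence for those genes. Post- versus pre-hyperglycemia, 1 of 6 was called, Gimap4, as higher, against 2.18% of all probe sets in either direction and 0.718% higher. The median difference of the 6 probe sets from BBDR.+/+ was 0.09 post-hyperglycemia, beside 0.01 over all probe sets. It was -0.16 pre-hyperglycemia, beside -0.0034, and -0.03 over both lyp/lyp groups, beside 0.0035. Post- versus pre-hyperglycemia all 6 differences were positive, with a median of 0.18 beside 0.01 over all probe sets.

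**Figure D2:**
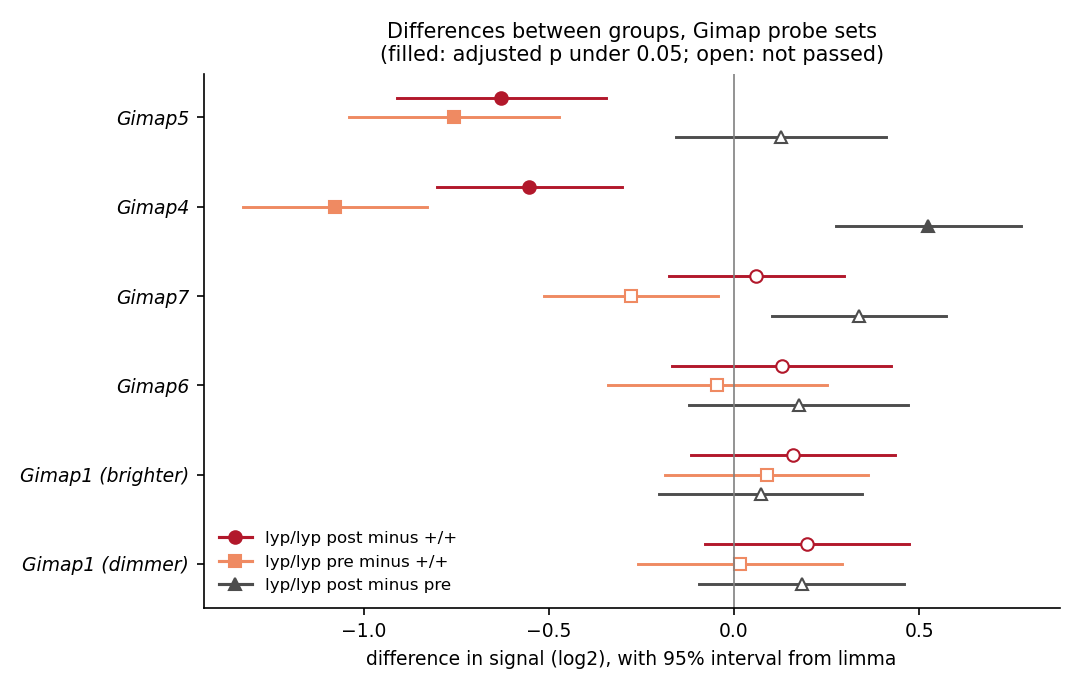
Log2 differences between groups (horizontal axis) with 95% limma intervals for the 6 Gimap probe sets, each as post-hyperglycemia lyp/lyp minus BBDR.+/+, pre-hyperglycemia lyp/lyp minus BBDR.+/+ and post- minus pre-hyperglycemia lyp/lyp. Filled symbols passed an adjusted p of 0.05, which only Gimap5 and Gimap4 did, and the post- minus pre-hyperglycemia value passed for Gimap4 alone.

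These calls rest on few arrays. Without BBDR.+/+ replicate 1 or 2 the Gimap5 call ended post-hyperglycemia (-0.64 and -0.61), pre-hyperglycemia (-0.77 and -0.74) and over both lyp/lyp groups (-0.71 and -0.68). The Gimap4 call ended in the same way post-hyperglycemia (-0.53 and -0.57) and pre-hyperglycemia (-1.06 and -1.10), and over both lyp/lyp groups without BBDR.+/+ replicate 2 (-0.84), where 1 of all 31042 probe sets was then called, against 951 with all arrays. Without post-hyperglycemia replicate 1 the post-hyperglycemia calls also ended, at -0.47 for Gimap4 and -0.53 for Gimap5, and without pre-hyperglycemia replicate 1 the Gimap5 call pre-hyperglycemia ended, at -0.59. The rise of Gimap4 post- versus pre-hyperglycemia lost its call with any 1 of the 6 arrays left out, with values of 0.43 to 0.62. By the rank product, at a false discovery rate of 20%, both genes were called pre-hyperglycemia (0.005 for Gimap4, 0.0398 for Gimap5) and over both lyp/lyp groups (0.0256 and 0.0537), but neither was post-hyperglycemia (0.306 and 0.236), nor Gimap4 post- versus pre-hyperglycemia (0.266). The methods' t-test, adjusted over all probe sets, called 0 Gimap probe sets in each comparison. At an unadjusted p under 0.05 it held Gimap4 and Gimap5 in each comparison with BBDR.+/+, Gimap7 also pre-hyperglycemia, and 0 of 6 post- versus pre-hyperglycemia.

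The genes that flank the cluster were examined because they lie nearest to the mutation. In RefSeq gene order the cluster runs Gimap8, Gimap9, Gimap4, Gimap6, Gimap7, Gimap1 and Gimap5, so the 2 lower members stood apart, with 3 members that were not called between them. Of the 15 nearest genes on the array on each side, 30 in all, 2 were called higher and 1 lower in lyp/lyp over both groups, beside 3.06% of all probe sets called and 1.88% called lower. The median difference of the 30 was 0.04, beside 0.03 over all 14217 genes. The immediate neighbors were not called. RGD1559747, before the cluster, differed by -0.07, and the membrane protein genes Tmem176b and Tmem176a, which follow Gimap5, differed by -0.15 and 0.11 over both lyp/lyp groups. Tmem176b stood at -0.33 post-hyperglycemia (limma adjusted p = 0.0942) and at 0.03 pre-hyperglycemia (limma adjusted p = 0.956). The methods' t-test called 0 of all 31042 probe sets over both lyp/lyp groups, the flanking genes and cell type markers named here included. Whether strain differences in sequence lie under the probes of Gimap4 or of the flanking genes was not tested.

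Gpnmb, a glycoprotein of macrophages and the 7th array gene after the cluster, was lower in both lyp/lyp groups. Its log2 signals were 7.52 and 7.63 post-hyperglycemia, 7.46 and 7.48 pre-hyperglycemia, and 8.27 and 8.23 in BBDR.+/+ livers. The difference over both lyp/lyp groups was -0.72 (limma adjusted p = 0.00325). It was -0.67 post-hyperglycemia and -0.78 pre-hyperglycemia, both called, and without BBDR.+/+ replicate 2 the call ended over both groups (-0.74) and post-hyperglycemia (-0.69). The pre-hyperglycemia call ended without pre-hyperglycemia replicate 1 (-0.76) or either BBDR.+/+ array (-0.76 and -0.80). All 9 measured markers of Kupffer cells, the resident macrophages of liver, had positive differences over both groups.

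Igf2bp3, an RNA-binding protein best known from fetal tissue and the 9th array gene after the cluster, was measured by 3 probe sets that disagreed. The brightest read 9.53 and 9.85 post-hyperglycemia, 9.65 and 9.45 pre-hyperglycemia, and 8.34 and 8.51 in BBDR.+/+ livers, a difference of 1.20 over both lyp/lyp groups (limma adjusted p = 0.00136). This call ended without BBDR.+/+ replicate 2 (1.28). The other probe sets were higher pre-hyperglycemia by 0.71 and 0.70 and stood at -0.11 and -0.15 post-hyperglycemia, where they were not called. Those pre-hyperglycemia calls ended without pre-hyperglycemia replicate 2 or either BBDR.+/+ array, and for the dimmest probe set also without pre-hyperglycemia replicate 1 (0.58 to 0.76) and with quantile normalization (0.73). Post- versus pre-hyperglycemia the same probe sets were called, at -0.82 (limma adjusted p = 0.00679) and, for the dimmest, -0.85 (limma adjusted p = 0.0101). The brightest stood at 0.14 there and was not called. With each array left out in turn, these 2 differences ran between -0.96 and -0.68, and between -1.03 and -0.67 for the dimmest. The call of the dimmest ended without post-hyperglycemia replicate 1 (-0.67), and the other call ended without pre-hyperglycemia replicate 2 (-0.68).

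Zfp467, a zinc finger gene and the 8th array gene before the cluster, read 8.34 and 8.29 post-hyperglycemia, 8.44 and 8.51 pre-hyperglycemia, and 8.06 and 7.78 in BBDR.+/+ livers. It was higher by 0.48 over both lyp/lyp groups (limma adjusted p = 0.0331), a call that ended with any 1 array left out (0.34 to 0.62) and with quantile normalization (0.44). Over both groups it did not pass the rank product (false discovery rate 0.296) or the methods' t-test (adjusted p = 0.398) either. The pre-hyperglycemia difference of 0.55 was not called (limma adjusted p = 0.0679). It was called with an intensity trend, the top 60% of probe sets, a replicate block or a threshold of 0.10. It also passed the rank product there (false discovery rate 0.177). The post-hyperglycemia difference of 0.40 (limma adjusted p = 0.0827) was called with an intensity trend or a threshold of 0.10.

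**Figure D3:**
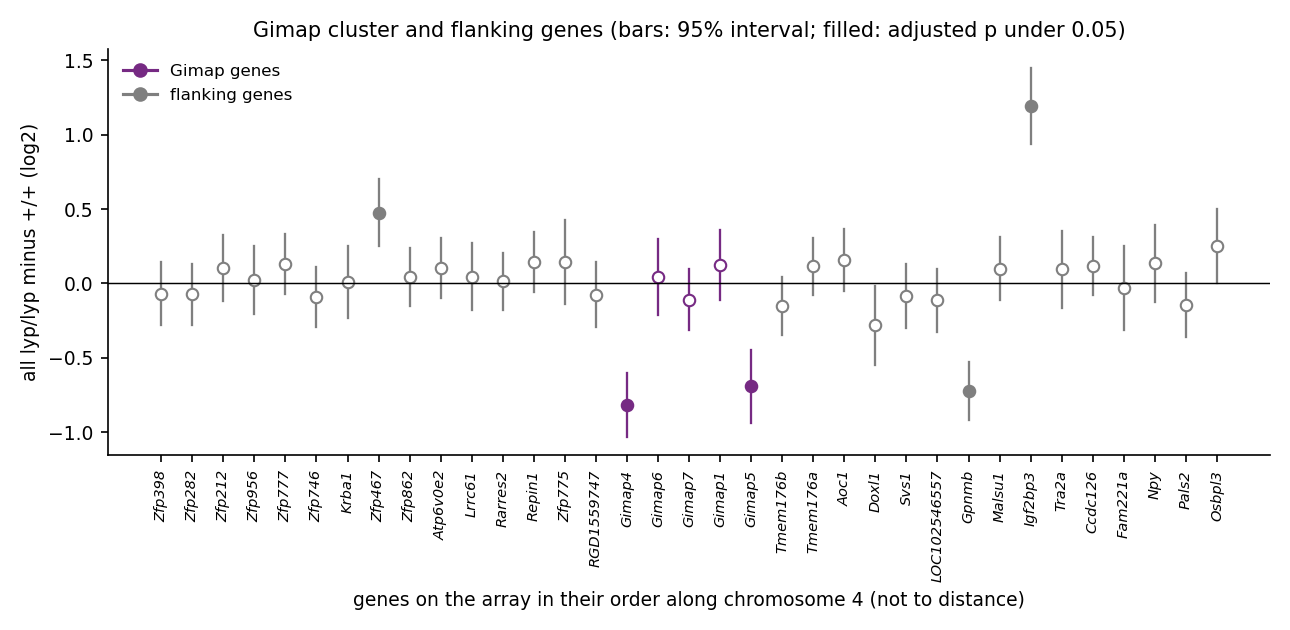
Log2 difference of all lyp/lyp from BBDR.+/+ (vertical axis, mean of the 2 lyp/lyp groups minus BBDR.+/+, with 95% limma intervals) for the Gimap genes and the 15 nearest array genes on each side, in gene order along chromosome 4 and not to distance. Gimap4 and Gimap5 are lower with Gimap6, Gimap7 and Gimap1 between them near 0, and Gpnmb, Igf2bp3 and Zfp467 are the flanking genes that passed the test.

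Since Gimap proteins are best known from lymphocytes, markers of the cells that liver holds were set beside Gimap5 and Gimap4. Which of these cells the Gimap signals came from was not tested. In bulk samples, fewer cells of a type and less RNA per cell cannot be told apart. Of 23 T cell markers listed, 20 were on the array, 16 of these had a negative difference over both lyp/lyp groups, and 1 was called, lower, beside 3.06% of all probe sets called and 1.88% called lower. Their median difference was -0.08, beside 0.03 over all genes. Post-hyperglycemia 1 of the 20 was called lower, Cd8b (-0.45), beside 5.15% of all probe sets called and 3.26% called lower, and the median over the list was -0.13. Cd8b did not pass the rank product there (false discovery rate 0.411). A count of 1 in 20 is close to the share called over all probe sets, so that count is not a result about T cell markers. At an unadjusted p under 0.05 limma held 5 of the 20 over both lyp/lyp groups and 4 post-hyperglycemia, all lower. The share of all probe sets at that unadjusted threshold was not taken. Pre-hyperglycemia, 0 of the 20 passed limma. Cd3e, Cd3d and Cd8b, 3 in all, had an unadjusted p under 0.05 there, and the median was -0.10. The T cell markers' summed linear signal was 919 and 875 post-hyperglycemia, 900 and 948 pre-hyperglycemia, and 993 and 1006 in BBDR.+/+ livers, a ratio of 0.911 for all lyp/lyp over BBDR.+/+. No marker was listed at 0, but 14 of the 20 lay below the median probe set, and no detection call was given for them.

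Cd3e, a chain of the T cell receptor complex, was the T cell marker called. Its log2 signals were 5.54 and 5.67 post-hyperglycemia, 5.32 and 5.69 pre-hyperglycemia, and 6.01 and 6.07 in BBDR.+/+ livers. All lyp/lyp arrays lay below both BBDR.+/+ arrays, and the difference over both groups was -0.48 (limma adjusted p = 0.0472). That call ended with any 1 array left out except pre-hyperglycemia replicate 2 (-0.52 to -0.39), and with median centring (-0.46) or quantile normalization (-0.47). It also did not pass the rank product (false discovery rate 0.257) or the methods' t-test (adjusted p = 0.421). Cd3d, of the same complex, stood at -0.48 (limma adjusted p = 0.069), and Cd8b, a coreceptor chain of cytotoxic T cells, at -0.35 (limma adjusted p = 0.0719). Other chains of the same complexes stood nearer to no difference. Cd3g and Cd247, of the T cell receptor complex, differed by -0.10 and -0.06, and Cd8a, the partner of Cd8b, by 0.08, none of them called. The part of the T cell markers in the Gimap4 and Gimap5 differences was not tested.

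No marker of the other cell types was called lower over both lyp/lyp groups, where 3.06% of all probe sets were called in either direction. Of 13 NK cell markers, 2 were called higher, Gzma, a granzyme, by 0.59 and Klrg1, an inhibitory lectin receptor, by 0.40, and the median was 0.14. Of 9 Kupffer cell markers on the array, 2 were called higher, the scavenger receptor Cd163 by 0.50 and the complement gene C1qa by 0.38, with a median of 0.32. Of 14 endothelial markers on the array, 1 was called higher, the adhesion molecule Pecam1 by 0.45, with a median of 0.18. Limma called 0 of 6 B cell markers (0 at an unadjusted p under 0.05) and 0 of 6 hepatocyte markers (1, Apoa1), with medians of 0.03 and -0.01. Each of the 5 NK, Kupffer and endothelial calls ended with at least 4 of the 6 single arrays left out, among them pre-hyperglycemia replicate 1 and BBDR.+/+ replicate 2. With each array left out in turn, the differences ran between 0.35 (without BBDR.+/+ replicate 2) and 0.83 for Gzma, 0.38 and 0.42 for Klrg1, 0.38 and 0.63 for Cd163, 0.36 and 0.41 for C1qa, and 0.39 and 0.52 for Pecam1. Quantile normalization ended the calls of Gzma (0.58), Klrg1 (0.36) and C1qa (0.36). By the rank product Gzma passed (false discovery rate 0.153), whereas Klrg1 (0.495), Cd163 (0.268), C1qa (0.521) and Pecam1 (0.359) did not. Summed linear signals were 1.14 times those of BBDR.+/+ for NK cells, 1.25 times for Kupffer cells and 1.15 times for endothelial cells in all lyp/lyp livers. Post-hyperglycemia alone, limma called 4 of the 9 Kupffer, 2 of the 13 NK and 1 of the 14 endothelial markers higher, beside 5.15% of all probe sets. Pre-hyperglycemia it called 0 in each of these lists, beside 0.718%, with 6, 2 and 6 at an unadjusted p under 0.05.

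**Figure D4:**
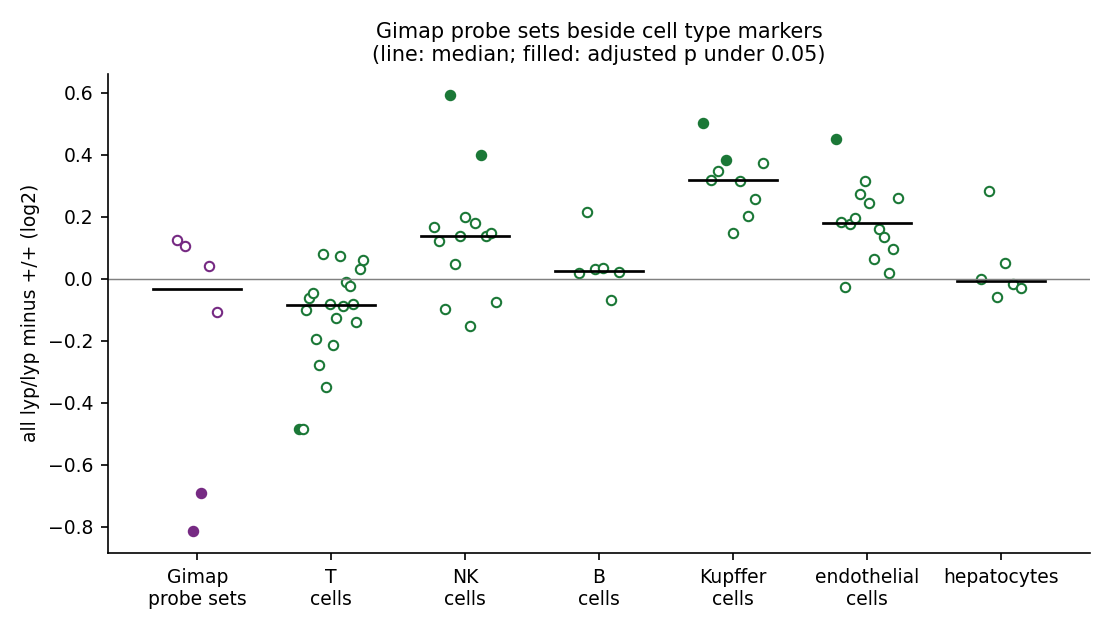
Log2 difference of all lyp/lyp from BBDR.+/+ (vertical axis) for the 6 Gimap probe sets and for the markers of 6 cell types, 1 point per gene at its brightest probe set, with a line at each median and filled points past an adjusted p of 0.05. Gimap4 and Gimap5 lie below all 20 T cell markers, whose median is -0.08, and Kupffer cell markers lie above 0.

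Genes whose products have been reported to bind or act with Gimap proteins did not pass the test. Of 8 listed, 5 were on the array, and limma called 0 in each of the 4 comparisons, with 0 at an unadjusted p under 0.05 as well. Across all probe sets 0.718% to 5.15% were called in these comparisons. A count of 0 of 5 is close to those shares, so it is not a result about these genes. Bcl2l1 and Bcl2, survival factors of the Bcl2 family, differed by -0.07 and 0.01 over both lyp/lyp groups, and Bcl2l11, a member that promotes cell death, by 0.15 (limma adjusted p = 0.477). The summed linear signal of all 5 genes in all lyp/lyp livers was 1.05 times that of BBDR.+/+.

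The genes most like Gimap5 over the 6 arrays, out of 14211 probe sets compared, were Thrsp, a regulator of lipid synthesis in liver (Pearson r 0.995), Eif3a, a subunit of a translation initiation factor (0.990), the calcineurin regulator Rcan1 (0.989), Cd3e (0.987) and Pakap (0.987). With 6 points of which the BBDR.+/+ pair is highest, 38 probe sets had an r over 0.95, and the ranking is a description with no test.

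Technical values that moved with the groups bear on the comparisons with post-hyperglycemia arrays. The 3′ minus 5′ difference of the beta-actin control probe sets, on the log2 scale and read as a sign of RNA and amplification quality, was 2.11 and 2.04 post-hyperglycemia, 1.51 and 1.32 pre-hyperglycemia, and 1.36 and 1.12 in BBDR.+/+ livers. For GAPDH it was 1.37 and 1.33 post-hyperglycemia, 0.674 and 0.548 pre-hyperglycemia, and 0.720 and 0.444 in BBDR.+/+ livers. The post-hyperglycemia arrays thus stood apart from the other 4, whereas pre-hyperglycemia and BBDR.+/+ arrays overlapped for both controls. The part of the control difference in the post-hyperglycemia values, among them the rise of Gimap4 over its pre-hyperglycemia level, was not tested. The labels describe a fast before collection whereas the methods give free access to food, so the feeding state is not settled. The labels also name another amplification kit than the methods, and the kit bears on how a 3′ minus 5′ difference is read. Array medians lay between 5.90 and 5.94.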

How the data were processed

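RNA from whole liver was measured on Affymetrix RG230 2.0 arrays. The deposited values were log2 signals, 1 per probe set and array, quantified by the authors in Affymetrix Expression Console and normalized by them in Partek Genomic Suite. Version numbers and the kind of normalization were not given in the sources used here. Of 31099 probe sets, 57 controls were set aside. No filter was applied. Groups were compared with limma 3.58.1 in R 4.3.3 (1 mean per group, all 6 arrays, 3 residual and 7.7 prior degrees of freedom) with Benjamini-Hochberg adjustment over 31042 probe sets and a threshold of 0.05. The rank product was run with 100 permutations of values within each array. Both were tested on simulated data. Depth does not apply to arrays, and their number limits the precision.

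Named were all Gimap probe sets, the flanking genes called in any comparison, up to 4 genes of each list by the smallest p, and the 5 genes most correlated with Gimap5. Partner chains of the T cell markers named were added. Members and lists were chosen with earlier results of these data known. Gene names came from the array's annotation, and all 6 Gimap probe sets matched the RefSeq table by Entrez identifier. Sequences came from RefSeq (GRCr8). Median centring, quantile normalization, the top 60% of probe sets, an intensity trend, a replicate block, a threshold of 0.10, the arrays of 1 comparison, the methods' t-test and leaving out each array were tried. Python 3.11.15, numpy 2.4.6, pandas 2.3.3, scipy 1.17.1 and matplotlib 3.10.9 were used.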

Additional observations from a re-analysis of the deposited data

Results flagged for a closer look

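Gimap4 stood apart because its difference from BBDR.+/+ was not the same after and before hyperglycemia. The post-hyperglycemia difference minus the pre-hyperglycemia difference was 0.52 on the log2 scale (limma adjusted p = 0.0413), which is the direct comparison of the lyp/lyp groups, since both differences use the same BBDR.+/+ arrays. Both post-hyperglycemia arrays lay above both pre-hyperglycemia arrays. The call ended when any 1 array was left out, and the 3′ minus 5′ control values of the post-hyperglycemia arrays differed as well, a part that was not tested.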

How the results depend on the processing

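Median centring, quantile normalization, an intensity trend, a replicate block and a threshold of 0.10 changed no Gimap call, nor did the top 60% of probe sets, a filter that left Gimap7 and the dimmer Gimap1 probe set untested. By the methods' t-test, adjusted over all probe sets, 0 Gimap probe sets were called in each of the 4 comparisons, and Gimap5 at -0.63 post-hyperglycemia, -0.76 pre-hyperglycemia and -0.69 over both lyp/lyp groups was not called. That test called 0, 1, 0 and 0 of all 31042 probe sets post- and pre-hyperglycemia versus BBDR.+/+, over both lyp/lyp groups and post- versus pre-hyperglycemia. By the rank product, 0 Gimap probe sets were called post-hyperglycemia versus BBDR.+/+, where Gimap5 stayed at -0.63, and 0 post- versus pre-hyperglycemia. Of all 31042 probe sets it called 559 lower and 186 higher post-hyperglycemia, and 389 lower and 144 higher post- versus pre-hyperglycemia. With the arrays of the comparison alone, 0 were called post- versus pre-hyperglycemia (limma, 2 of 6 at an unadjusted p under 0.05, Gimap4 adjusted p = 0.0811), beside 413 of all 31042. A count of 0 of 6 is close to those shares, so it is not a result about the family. With each array left out in turn, the count of Gimap probe sets called ran between 0 and 2 in each comparison with BBDR.+/+ and was 0 throughout post- versus pre-hyperglycemia. In each of those fits that lost a Gimap call, fewer of all probe sets were called as well. The loss is therefore not a result about the Gimap genes. With each array left out, the Gimap5 difference ran between -0.73 and -0.53 post-hyperglycemia, -0.92 and -0.59 pre-hyperglycemia, -0.77 and -0.61 over both lyp/lyp groups, and -0.035 and 0.29 post- versus pre-hyperglycemia. Other values that crossed 0, none of them called, were Gimap6 over both lyp/lyp groups (-0.061 to 0.14) and pre-hyperglycemia (-0.21 to 0.12), Gimap7 post-hyperglycemia (-0.022 to 0.14), the brighter Gimap1 probe set pre-hyperglycemia (-0.0084 to 0.18) and post- versus pre-hyperglycemia (-0.057 to 0.20), the dimmer one pre-hyperglycemia (-0.042 to 0.073), the brightest Igf2bp3 probe set post- versus pre-hyperglycemia (-0.023 to 0.30) and the third post-hyperglycemia (-0.33 to 0.028). The cause of these changes was not tested, other than that fewer arrays entered those fits. Same-numbered arrays of different groups deviated together only weakly (correlations of 0.11, 0.142 and 0.261), and the labels do not pair them. With the replicate number as a block, 2, 2, 2 and 1 Gimap probe sets were called, as without it, Zfp467 was also called pre-hyperglycemia (0.55, adjusted p = 0.0464), and the calls over all probe sets numbered 1496 against 951 over both lyp/lyp groups, 2273 against 1599 post-hyperglycemia, 408 against 223 pre-hyperglycemia and 1191 against 677 post- versus pre-hyperglycemia.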

Other observations

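Genes with a pattern like that of Gimap4 were looked up after its values were seen. Of 14211 probe sets, 46 had a Pearson r over 0.95 with Gimap4 over the 6 arrays. The 5 closest were G0s2, an inhibitor of triglyceride lipase (0.998), Cfap20 (0.997), Scd, a desaturase of fatty acid synthesis (0.997), the secreted lipid regulator Angptl8 (0.994) and Septin2 (0.983). Scd had log2 signals of 11.96 and 12.11 in post-hyperglycemia lyp/lyp, 11.36 and 11.59 in pre-hyperglycemia lyp/lyp, and 12.71 and 12.77 in BBDR.+/+ livers, the same order of groups as Gimap4. G0s2 had 11.24 and 11.33 post-hyperglycemia, 10.92 and 11.01 pre-hyperglycemia, and 11.72 and 11.68 in BBDR.+/+ livers. With 6 points in 3 groups the likeness is a description only.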
